A study of Mus musculus with 6 samples.

Results

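The genes described here are 9 ligands of the bone morphogenetic protein (BMP) and growth and differentiation factor (GDF) family: Bmp2, Bmp3, Bmp4, Bmp5, Bmp6, Bmp7, Gdf5, Gdf6 and Gdf10. They were chosen by symbol from a table of 43346 genes, each symbol matched 1 row, and all 9 had enough counts to be among the 17554 genes tested. RNA was sequenced from epiphyseal chondrocytes, the cartilage cells at the ends of growing bones, of 5-day-old C57BL/6 mice. The wild type group (WT) has 3 libraries and the Girk3-null group (labelled Girk3 KO) has 3, which the study calls biological replicates. The null animals lack Girk3, a subunit of G protein-gated inwardly rectifying potassium channels that is encoded by Kcnj9. The labels name no transgene, Cre driver or treatment in either group and do not say whether animals were pooled. All animals are labelled male, and cells of both groups were released from cartilage with collagenase overnight before RNA extraction.

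BMP and GDF ligands are secreted dimers of the transforming growth factor beta superfamily. Most bind type I and type II serine/threonine kinase receptors, whose activity leads to phosphorylation of SMAD1, SMAD5 and SMAD9, which enter the nucleus with SMAD4 and act on genes such as those of the Id family. In cartilage these signals take part in the condensation of precursors, in chondrocyte proliferation and hypertrophy, and in the formation of joints, and secreted antagonists such as noggin limit them. The 9 ligands are grouped below by relatedness: BMP2 with BMP4, BMP5 with BMP6 and BMP7, GDF5 with GDF6, and BMP3 with GDF10 (also called BMP3B).

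Promoter sequences of 4 of the 9 ligands (Bmp4, Bmp5, Bmp6 and Gdf10) were in the RefSeq table used, on build GRCm38.p6, the same assembly as mm10, and 3 of them are shown. Bmp5 and Bmp6 are shown because these relatives had similar profiles over the 6 libraries, and Gdf10 because it differed most between libraries. Each runs 5′ to 3′ on the coding strand, from 250 bases before to 50 bases after the start of the gene. Bmp5 lies at chr9:75775115-75775414 on the plus strand, Bmp6 at chr13:38345466-38345765 on the plus strand and Gdf10 at chr14:33923337-33923636 on the plus strand. Capitals mark the SMAD box with a flanking G, GTCTG or its complement CAGAC, and the GC-rich SMAD element GGCGCC.
Bmp5: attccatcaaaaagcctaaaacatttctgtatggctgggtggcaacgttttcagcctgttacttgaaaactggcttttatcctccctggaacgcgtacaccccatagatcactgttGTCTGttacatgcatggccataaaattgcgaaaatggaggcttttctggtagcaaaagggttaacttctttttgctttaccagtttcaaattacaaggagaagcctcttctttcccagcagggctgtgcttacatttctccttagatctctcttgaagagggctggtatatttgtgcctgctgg
Bmp6: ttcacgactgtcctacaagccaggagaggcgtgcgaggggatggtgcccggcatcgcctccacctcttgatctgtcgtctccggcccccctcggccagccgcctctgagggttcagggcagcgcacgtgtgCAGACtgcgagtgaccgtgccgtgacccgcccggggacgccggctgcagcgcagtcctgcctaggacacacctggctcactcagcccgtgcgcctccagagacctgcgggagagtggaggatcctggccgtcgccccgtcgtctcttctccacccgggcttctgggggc
Gdf10: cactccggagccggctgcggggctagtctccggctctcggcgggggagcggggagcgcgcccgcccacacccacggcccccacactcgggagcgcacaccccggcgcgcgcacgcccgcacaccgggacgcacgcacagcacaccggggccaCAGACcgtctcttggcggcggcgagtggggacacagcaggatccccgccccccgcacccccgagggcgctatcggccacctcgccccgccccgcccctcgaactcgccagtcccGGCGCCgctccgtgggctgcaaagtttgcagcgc
The pair with similar profiles differed in base composition. The Bmp5 promoter was 43.3% G and C with 4 CpG dinucleotides, and the Bmp6 promoter 69.3% with 27, against a median of 52.7% over 32851 promoters of this length. The Gdf10 promoter was 77.3% G and C with 42 CpG dinucleotides. Searched on both strands, GTCTG occurred once in each of these 3 promoters, 134, 119 and 98 bases before the start in Bmp5, Bmp6 and Gdf10, and was not found in Bmp4. It is a common string, present in 49.6% of all promoters. GGCGCC occurred in Gdf10 alone among the 4, 16 bases after the start, and in 11.9% of all promoters. The TATA box TATAAA, the SOX core ACAAAG and the RUNX core TGTGGT were found in none of the 4 windows and in 13.6%, 18.7% and 16.8% of all promoters.

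Total counts ranged from 34279516 to 60392837 per library. Kcnj9 had 0 counts in all 6, so it could not serve to check the genotype labels. Girk3-null replicate 1 stood apart from the rest: 4 Y-linked genes summed to 16088 counts there and to 0 to 7 in the other 5 libraries. Xist had 19 counts there and 67346 to 144825 in the others. Every animal is labelled male, and it is the other 5 libraries, with all 3 of wild type, that go against this label. The sex seen in the transcripts was therefore not balanced between the genotypes. Results are also given without Girk3-null replicate 1. Below, values of a group are always listed in the order of its replicates. Cartilage markers were abundant. Of 18 listed symbols, some of them older and newer names of the same gene, 16 were found in the table (Col2a1, Acan and Sox9 among them). Their summed level was 53720 to 89320 CPM (counts scaled to library size with TMM factors) in wild type and 82600 to 130900 CPM in Girk3-null libraries. Markers of other cells in the digest were present too, with none of any list at 0 in every library. The 10 endothelial markers summed to 145.5 to 239 CPM in wild type and 32.3 to 118.5 CPM in Girk3-null libraries. Of 10 listed erythroid symbols, also with an older and a newer name of the same gene, 8 were found. They summed to 71.5 to 259 and 51.3 to 144 CPM, and the 10 skeletal muscle markers to 31.6 to 76.8 and 14.8 to 41.3 CPM. In bulk RNA, fewer cells of a type and less RNA per cell cannot be told apart.

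Bmp6 was the most abundant ligand transcript in every library. Levels of different genes were compared per length, as RPKM (reads per kilobase of gene and unit of library size, as deposited). Bmp6, a ligand known from hypertrophic cartilage, measured 48.4 ± 12.3 RPKM (mean ± SD over all 6 libraries) and was closest to another ligand in Girk3-null replicate 1, where it reached 33.2 RPKM and Gdf10 31.9 RPKM. On average Bmp6 stood above 94.6% of all genes tested, whose median was 3.95 RPKM. Then came Gdf10 at 15.8 ± 8.28, Bmp2 at 14.3 ± 2.47 and Gdf5 at 13.3 ± 2.03 RPKM. These 3 could not be put in order, since Gdf10 exceeded Bmp2 in 2 of 6 libraries (Girk3-null replicates 1 and 2) and Bmp2 exceeded Gdf5 in 4 of 6. Bmp5 followed at 9.43 ± 1.67 RPKM, below Gdf5 and above Bmp3 in 6 of 6 libraries with ranges that did not meet. Bmp3 at 4.68 ± 0.777, Bmp7 at 4.43 ± 1.61 and Bmp4 at 2.86 ± 0.806 RPKM had overlapping ranges, Bmp3 being above Bmp7 in 5 of 6 libraries and Bmp7 above Bmp4 in 5 of 6. Gdf6 was lowest at 0.560 ± 0.187 RPKM, below Bmp4 in 6 of 6 libraries and above 18.2% of the genes tested. The order of the middle ligands depends on the gene lengths used in the deposited values, which are shorter than the union of annotated exons for Bmp3 (3112 against 7398 bases), Bmp6 (2410 against 3900) and Gdf10 (2507 against 5210). With the union as length, an alternative chosen after seeing the data, Bmp6 stayed highest at 29.9 RPKM, while Gdf10 came to 7.61 and Bmp3 to 1.97 RPKM.

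**Figure D1:**
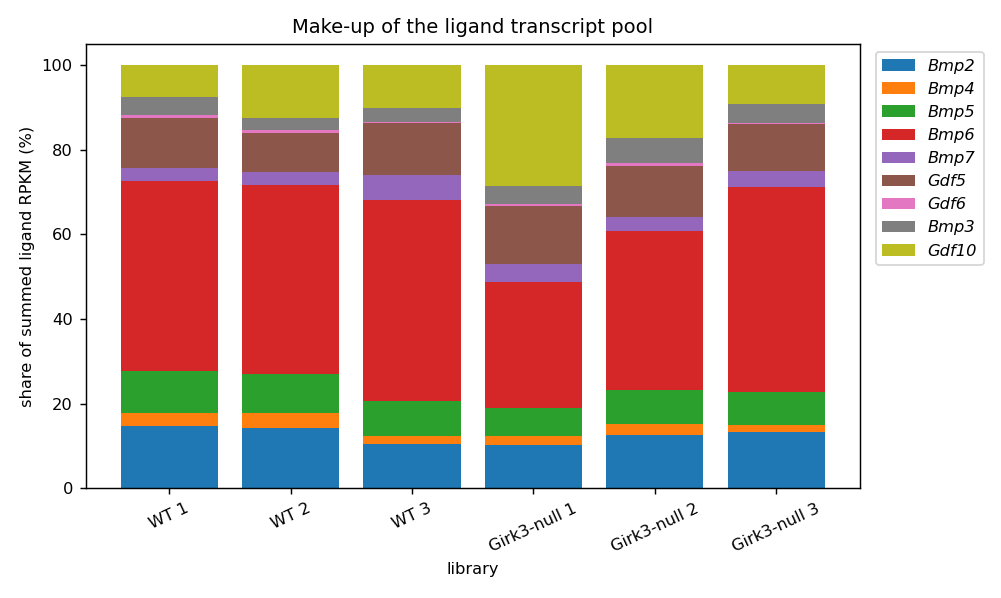
Share of the summed RPKM of the 9 ligands (y axis, percent) that each ligand took in each of the 6 libraries (x axis), as stacked bars that reach 100. Bmp6 took 44.6 to 47.5% in the wild type libraries, and Gdf10 took 28.7% in Girk3-null replicate 1.

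The summed ligand RPKM reached 109.8, 115.5 and 129 for wild type, and 111, 92.2 and 125 for the null group, with overlap. Bmp6 took 44.9, 44.6 and 47.5% of that sum in the wild type libraries, a narrow range. In the Girk3-null libraries it took 29.9, 37.4 and 48.5%. Gdf10 took 7.50, 12.4 and 10.1% in wild type and 28.7, 17.1 and 9.28% in Girk3-null libraries. Shares add to a fixed total, so the large Gdf10 share of Girk3-null replicate 1 leaves less for the others together. The Bmp6 level itself was also lower there, at 33.2 RPKM against 49.3, 51.6 and 61.3 RPKM in wild type. Gdf5 had its highest share in that library, at 13.7%. BMP5, BMP6 and BMP7 together made up 63.7, 65.7 and 79.3 RPKM in wild type and 45.0, 45.0 and 75.1 RPKM in Girk3-null libraries, and again Girk3-null replicate 3 lay within the wild type range.

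No ligand passed the genotype test. With edgeR's quasi-likelihood test, 0 of the 9 ligands had an adjusted p below 0.05 over all genes, beside 1 of 17554 genes (0.00570%). At an unadjusted p below 0.05 there were 3, Bmp3 and Gdf10 with higher and Bmp4 with lower values in Girk3-null libraries, where 14.5% of all tested genes were as low. With the leading digit of the number in each sample's title as a covariate, edgeR gave Bmp3 and Bmp4 an unadjusted p of 0.0809 and 0.0926, and Gdf10 and Bmp5 one of 0.0358 and 0.0377. Under that covariate 12.7% of all genes were below 0.05. Without Girk3-null replicate 1, Bmp3 and Bmp4 were at that level and Gdf10 was not, beside 9.70% of all genes. What that digit stands for is not stated in the labels. The groups did not overlap in CPM for 2 of the 9, Bmp3 and Bmp4, beside 20.0% of all tested genes. DESeq2 also called 0 of the 9, beside 2.23% of the genes to which it gave an adjusted p. Log2 fold changes (Girk3-null over wild type) were positive for 4 ligands and negative for 5, from -0.46 to 0.83, with a median of -0.09 against 0.01 for all genes tested.

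**Figure D2:**
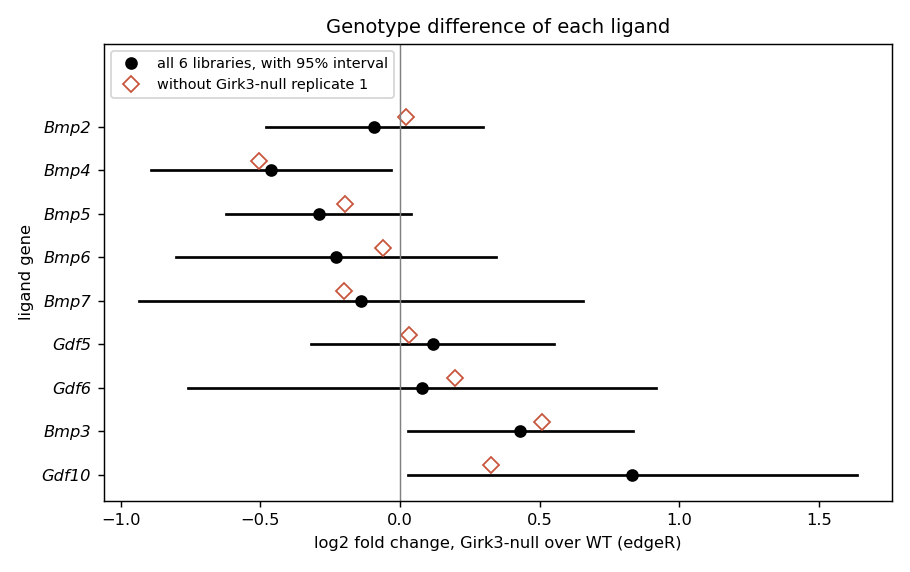
Log2 fold change of each ligand (x axis, Girk3-null over wild type) with its 95% interval from edgeR as a line, and the value without Girk3-null replicate 1 as an open diamond. Gdf10 moved from 0.83 to 0.33 without that library, while Bmp3 and Bmp4 stayed at 0.51 and -0.50.

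BMP2 and BMP4 are close relatives that induce cartilage and bone when placed in soft tissue. Bmp2 (ENSMUSG00000027358; chromosome 2, 133552159 to 133562885, mm10) measured 53.5, 54.1 and 49.4 CPM in the wild type group. It measured 41.3, 42.3 and 63.9 CPM in the Girk3-null group. The null libraries lay on both sides of the wild type ones, with 2 below and replicate 3 above. Its log2 fold change was -0.09 with a standard error of 0.17, a 95% interval of -0.48 to 0.30 and an adjusted p of 0.815 in edgeR. A change of 2-fold in either direction lies outside that interval, and the value turned to 0.02 without Girk3-null replicate 1 and to 0.01 without replicate 2. It was -0.32 without Girk3-null replicate 3 (unadjusted p = 0.0185, adjusted p = 0.265 in edgeR).

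Bmp4 (ENSMUSG00000021835; chromosome 14, 46383520 to 46390669) measured 7.24, 8.57 and 6.05 CPM in wild type libraries. It measured 5.60, 5.62 and 4.65 CPM in Girk3-null libraries. Every null library was below every wild type library, by a small margin between wild type replicate 3 and Girk3-null replicate 2. The log2 fold change was -0.46 (standard error 0.19, 95% interval -0.89 to -0.03, adjusted p = 0.326 in edgeR) and did not pass. It was -0.50 without Girk3-null replicate 1. Endothelial markers, summed over 10 genes, were likewise lower in every Girk3-null library, at 32.3, 101 and 118.5 CPM against 185, 239 and 145.5 CPM in wild type. Their part in the Bmp4 values was not tested. Bmp2 stood at 3.95 to 5.10 times the Bmp4 level per length in wild type libraries, at 4.61 and 4.71 times in Girk3-null replicates 1 and 2, and at 8.60 times in replicate 3. Bmp4 overlaps Gm15217 by 89 exonic bases and Gm15222 with none, genes of the opposite strand with 0 and 9 counts over all libraries.

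**Figure D3:**
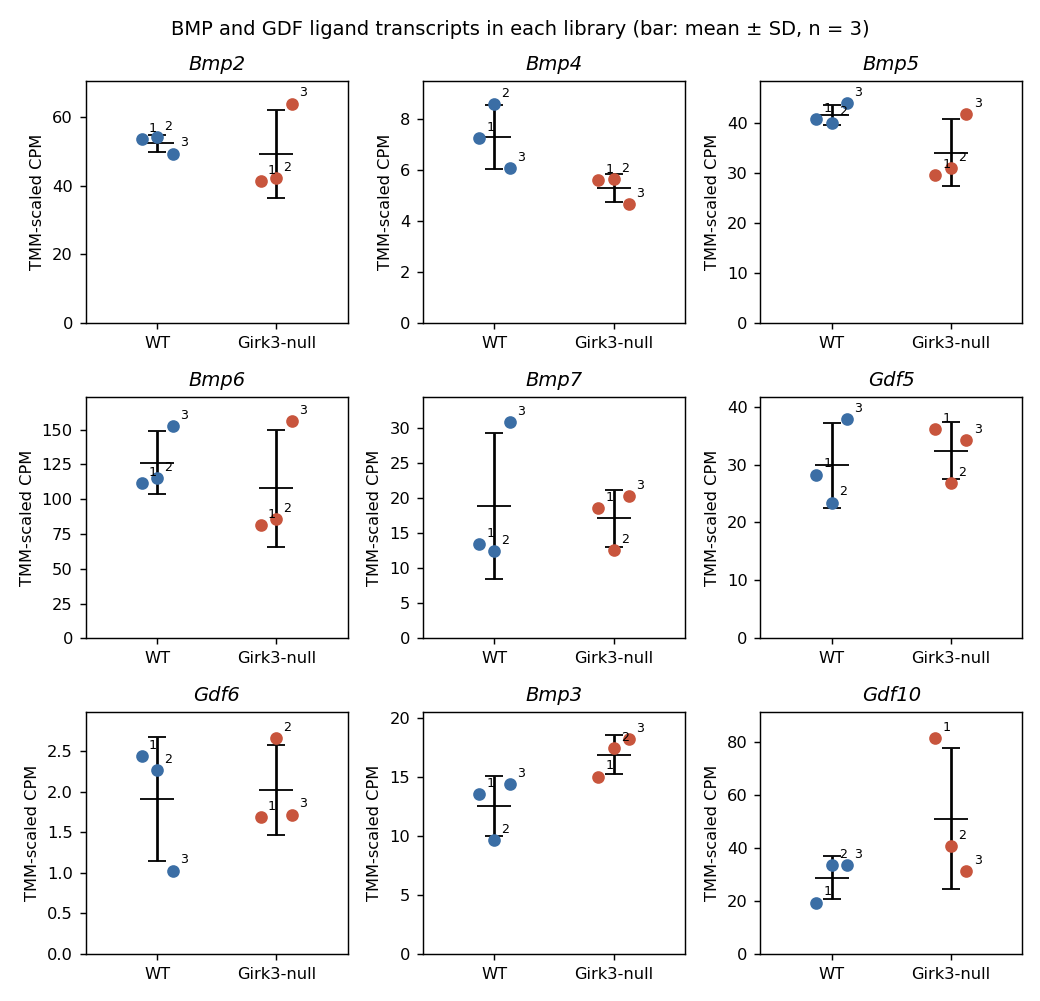
Level of each ligand in TMM-scaled CPM (y axis, from 0) in the 3 wild type and 3 Girk3-null libraries (x axis), with points numbered by replicate and bars for the mean ± SD. The groups separate for Bmp4 and Bmp3 and overlap for the 7 other ligands, and Gdf10 reaches 81.4 CPM in Girk3-null replicate 1.

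BMP5, BMP6 and BMP7 form the second subgroup. Bmp6 (ENSMUSG00000039004; chromosome 13, 38345716 to 38499728) measured 111.5, 115 and 152 CPM in the wild type group. It measured 81.7, 85.5 and 156.4 CPM in the Girk3-null group. The 2 lowest values were both from null libraries and the highest was too, so the spread within the null group was wider than the difference between the group means. For Bmp6 the log2 fold change was -0.23 (standard error 0.25, 95% interval -0.80 to 0.34, adjusted p = 0.675 in edgeR), and the value was -0.06 without Girk3-null replicate 1. Single libraries moved it in both directions: it was -0.60 without Girk3-null replicate 3 (unadjusted p = 0.00697, adjusted p = 0.257 in edgeR), -0.07 without wild type replicate 3 and -0.09 without Girk3-null replicate 2. The 8 hypertrophic cartilage markers were also highest in wild type replicate 3 and Girk3-null replicate 3, at 5851 and 5561 CPM in sum, against 3703 to 4558 CPM in the other 4 libraries. Of the 8, Col10a1 alone had this order, at 2455, 2048 and 3455 CPM in wild type and 976, 2338 and 3205 CPM in Girk3-null libraries, while Mmp13, the next most abundant, was highest in Girk3-null replicate 1 at 2990 CPM. Their part in the Bmp6 values was not tested.

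Bmp5 (ENSMUSG00000032179; chromosome 9, 75775364 to 75900310), the gene mutated in short ear mice, had nearly constant values in wild type libraries, 40.8, 40.2 and 44.1 CPM. It measured 29.6, 31.0 and 41.8 CPM in Girk3-null libraries. As for Bmp6, replicates 1 and 2 of the null group were low and replicate 3 reached the wild type range. A log2 fold change of -0.29 was found (standard error 0.145, 95% interval -0.62 to 0.04, adjusted p = 0.376 in edgeR). It was -0.20 without Girk3-null replicate 1 and -0.46 without Girk3-null replicate 3. The groups overlapped in CPM and did not in RPKM, which uses library totals alone. Library totals in edgeR moved the median of all genes tested from 0.01 to -0.09. The share of all genes without overlap in RPKM was not computed, so this separation cannot be set beside it. Bmp5 shares 1878 exonic bases with Gm26903, an antisense gene with 0 counts. How reads in shared bases were counted is not stated in the labels, so the level of Bmp5 is uncertain to that extent.

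Bmp7 (ENSMUSG00000008999; chromosome 2, 172868012 to 172940321) measured 13.4, 12.4 and 30.8 CPM in wild type libraries. It measured 18.6, 12.6 and 20.2 CPM in Girk3-null libraries. Wild type replicate 3 was far above the other 2 of its group. For Bmp7 it came to -0.14 on the log2 fold scale with a wide 95% interval of -0.93 to 0.65 (adjusted p = 0.867 in edgeR), was -0.20 without Girk3-null replicate 1, and turned to 0.41 without wild type replicate 3 and to 0.04 without Girk3-null replicate 2. Bmp6 exceeded Bmp7 by 7.34 to 15.5 times per length.

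GDF5 and GDF6 are known from developing joints, and loss of GDF5 shortens limb bones in brachypodism mice. Gdf5 (ENSMUSG00000038259; chromosome 2, 155941023 to 155945367) measured 28.3, 23.4 and 37.9 CPM in wild type libraries. It measured 36.1, 26.8 and 34.2 CPM in Girk3-null libraries. The groups overlapped fully, with both the lowest and the highest value in wild type libraries. Its log2 fold change was 0.12 (standard error 0.19, 95% interval -0.32 to 0.55, adjusted p = 0.786 in edgeR), and 0.03 without Girk3-null replicate 1. It moved to 0.33 without wild type replicate 3, to 0.24 without Girk3-null replicate 2 and to -0.03 without wild type replicate 2. Gdf5 shares 936 exonic bases with Gm15557, a gene of the opposite strand with 1 count over all libraries, and the same doubt about shared bases applies.

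Gdf6 (ENSMUSG00000051279; chromosome 4, 9844372 to 9862345) was the only ligand below 3 CPM, with 42 to 123 counts per library. It measured 2.43, 2.26 and 1.03 CPM in wild type libraries and 1.69, 2.66 and 1.72 CPM in Girk3-null libraries. Wild type replicate 3, the library with the highest Bmp7 and Gdf5, had the lowest Gdf6. The log2 fold change was 0.08 (standard error 0.37, 95% interval -0.76 to 0.92, adjusted p = 0.935 in edgeR), and 0.20 without Girk3-null replicate 1. Its sign turned in 4 of 15 alternative fits. These were library totals without TMM factors (-0.05), log2(RPKM + 1) (-0.008), and leaving out wild type replicate 3 (-0.21) or Girk3-null replicate 2 (-0.17). Gdf5 exceeded Gdf6 by 15.3 to 56.3 times per length.

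BMP3 and GDF10 are related ligands that stand apart from the bone-inducing BMPs, and BMP3 is known to oppose them. Bmp3 (ENSMUSG00000029335; chromosome 5, 98854439 to 98880960) measured 13.5, 9.64 and 14.4 CPM in wild type libraries. It measured 15, 17.4 and 18.2 CPM in Girk3-null libraries. Every null library was above every wild type library, with little distance between wild type replicate 3 and Girk3-null replicate 1. The log2 fold change was 0.43 (standard error 0.18, 95% interval 0.03 to 0.83, adjusted p = 0.327 in edgeR) and did not pass. It was 0.51 without Girk3-null replicate 1 and 0.27 without wild type replicate 2, the library with the lowest value. The 16 cartilage markers summed to 69770, 53720 and 89320 CPM in wild type and to 82600, 116400 and 130900 CPM in the null ones. As for Bmp3, wild type replicate 2 was lowest and Girk3-null replicates 2 and 3 were highest. Col2a1 gave much of these sums, at 39040, 28890 and 54990 CPM in wild type and 51330, 72960 and 88110 CPM in Girk3-null libraries. Col2a1 had this order, as did Col9a2, Col9a3, Col11a2, Matn1, Matn3 and Comp. The other members, Acan and Sox9 among them, did not. The part of the cartilage content was not tested.

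Gdf10 (ENSMUSG00000021943; chromosome 14, 33923587 to 33935280) had the widest range of the 9 between libraries. It measured 19.4, 33.4 and 33.5 CPM in the wild type group. It measured 81.4, 40.7 and 31.1 CPM in the Girk3-null group. Girk3-null replicate 1 stood far above the next highest library, and replicate 3 lay inside the wild type range. The log2 fold change was 0.83 (standard error 0.35, 95% interval 0.03 to 1.63, adjusted p = 0.333 in edgeR). It dropped to 0.33 without Girk3-null replicate 1, with an adjusted p of 0.631, and the unadjusted p rose from 0.0438 to 0.219. That library, the one with Y-linked transcripts, also had the highest osteoblast marker sum, at 23210 CPM against 10150 to 13120 CPM in the other 5, and the highest sum of perichondrial, tendon and stromal markers, at 8982 CPM against 6245 to 6752 CPM. Spp1 alone gave 20950 CPM of the first and Dcn 5313 CPM of the second. In the first list Dmp1 was lowest in that library, at 5.585 CPM against 38.24, 30.76 and 16.91 CPM in wild type. Col1a1, the next most abundant after Spp1, was at 2093 CPM there. It was at 2435, 1946 and 2244 CPM in wild type and 2727 and 3189 CPM in Girk3-null replicates 2 and 3. The other members of the first list, Spp1 among them, were highest in Girk3-null replicate 1. In the second list Lum and Mkx were also highest in that library, and the other members were not. Col3a1 was at 2610 CPM there, against 3788, 3101 and 2373 CPM in wild type. Their part in the Gdf10 values was not tested.

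**Figure D4:**
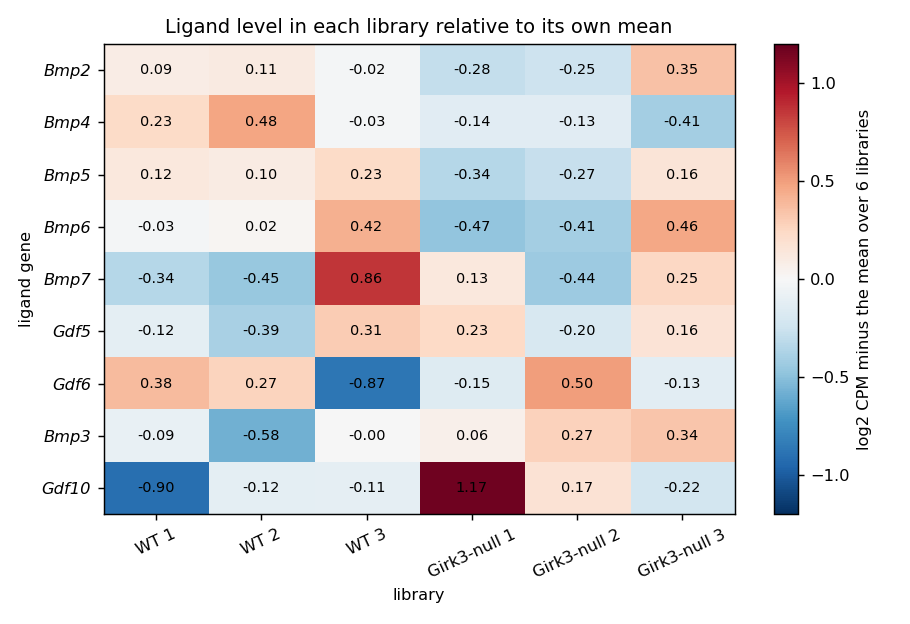
Log2 CPM of each ligand (rows) in each library (columns) minus that ligand's mean over the 6 libraries, with red above and blue below the mean. Bmp5 and Bmp6 are lowest in Girk3-null replicates 1 and 2, and Bmp7 and Gdf6 take opposite signs in all 6 libraries.

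Several ligands differed between libraries in ways that crossed the genotypes. Bmp7 and Gdf5 were both highest in wild type replicate 3 and both lower in 3 libraries (wild type replicates 1 and 2, with null replicate 2) than elsewhere, and Gdf6 was higher in those same 3. The 8 erythroid markers summed to 199, 259 and 71.5 CPM in wild type and 51.3, 144 and 83.4 CPM in Girk3-null libraries, highest in the same 3 libraries as Gdf6. Whether other cells in the digest take part in these ligand profiles was not tested. Among the 36 pairs of ligands, Bmp7 and Gdf6 had a Pearson r of -0.979 (exact permutation p = 0.0111, adjusted p = 0.15 over 36 pairs) and a Spearman rho of -0.771 (exact p = 0.103, adjusted p = 0.529). Bmp3 and Bmp4 had r of -0.94 (exact permutation p = 0.00278, adjusted p = 0.1) and rho of -0.943 (exact p = 0.0167, adjusted p = 0.3). Bmp5 and Bmp6 had r of 0.921 (exact permutation p = 0.0125, adjusted p = 0.15) and rho of 0.886 (exact p = 0.0333, adjusted p = 0.35). Leaving out the 2 libraries farthest from the median of the first gene gave r of -0.92, -0.764 and 0.784 for these 3 pairs. With values centred within each genotype, added after seeing the data and not tested, r was -0.986, -0.857 and 0.978. No pair passed after adjustment.

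For each ligand, the gene whose log2 CPM was most like it over the 6 libraries was sought among 12866 candidates that averaged at least 1 on the log2 CPM scale (12867 for Gdf6). These genes were Ccdc112 for Bmp2 (Pearson r = 0.997), Ercc2 for Bmp3 (0.995), Gnai1 for Bmp4 (0.997), Micall1 for Bmp5 (0.999), Lrrc58 for Bmp6 (0.994), Rin1 for Bmp7 (0.987), Ccnk for Gdf5 (0.995), Slc35f1 for Gdf6 (0.990) and Rwdd3 for Gdf10 (0.994). With 6 libraries such values are common: between 15 and 120 genes per ligand exceeded 0.95. None of the 9 was itself a BMP pathway gene of the lists below.

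The rest of the pathway was read from 6 lists of 71 distinct genes, of which 61 were tested and 0 passed in edgeR. Their counts at an unadjusted p below 0.05 stand beside 14.5% of all genes tested, and their counts of groups without overlap beside 20.0%. The 2 lists of genes that carry the signal into the cell had small median differences, with members of either sign. Of 12 receptors and co-receptors 5 had positive and 7 negative log2 fold changes, with a median of -0.11, and 1 had an unadjusted p below 0.05. The type I receptor genes Bmpr1a and Acvr1 measured 20.4 ± 2.65 and 24.8 ± 3.55 RPKM over 6 libraries, against 0.494 ± 0.167 RPKM for Bmpr1b. The smallest p-values belonged to Acvr2a, an activin and BMP type II receptor (log2 fold change -0.37, adjusted p = 0.315 by edgeR), Acvr1 (-0.24, 0.346) and Bmpr2, the BMP type II receptor (-0.21, 0.386). Without Girk3-null replicate 1 they were -0.32, -0.16 and -0.23. The unadjusted p of each was then above 0.05 in edgeR (0.0792, 0.137 and 0.0855). The 1 of 12 below it was another gene, beside 9.70% of all genes. Among 8 SMADs and their ubiquitin ligases 3 were positive and 5 negative, with a median of -0.06, and 1 had an unadjusted p below 0.05. Those with the smallest p-values were Smad9, which relays BMP signals (0.59, adjusted p = 0.307 in edgeR), Smurf2, a ubiquitin ligase of this pathway (-0.22, 0.355), and Smad6, an inhibitory SMAD (0.48, 0.365). Without Girk3-null replicate 1 they were 0.36, -0.17 and 0.37, and 0 of the 8 had an unadjusted p below 0.05 in edgeR, beside 9.70% of all genes tested without that library.

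**Figure D5:**
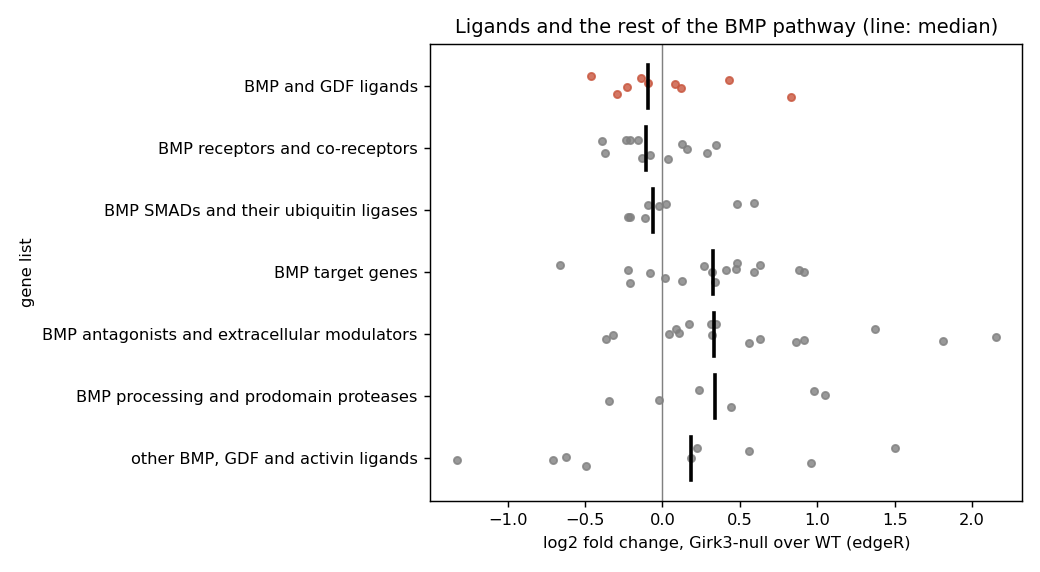
Log2 fold change (x axis, Girk3-null over wild type) of each tested gene in the 9 ligands and in 6 lists of other BMP pathway genes (y axis), with a vertical line at each median. Medians lie between -0.11 for receptors and 0.34 for processing proteases, and -0.09 for the ligands.

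Known target genes of BMP signalling had a median log2 fold change of 0.33, with 12 of 16 tested members positive, 3 positive and 1 negative at an unadjusted p below 0.05 (14.5% of all genes), and 0 called. Without Girk3-null replicate 1 the median was 0.33 with 13 of 16 positive, and 1 of 16 was at that level, beside 9.70% of all genes. Id1, Id2 and Id3, the best known of them, measured 45.7 ± 3.43, 104.9 ± 18 and 47.3 ± 6.06 RPKM over 6 libraries, with log2 fold changes of 0.12, -0.22 and 0.27. The smallest p-values were those of Dlx5, a homeobox regulator of skeletal cells, of Grem1 and of Smad9. Dlx5 measured 3.62, 2.78 and 3.83 CPM in wild type and 6.82, 5.78 and 6.20 CPM in Girk3-null libraries (log2 fold change 0.88, adjusted p = 0.291 in edgeR). Its groups did not overlap. Grem1, which encodes a secreted BMP antagonist, measured 42.5, 41.3 and 56.2 CPM in wild type and 136, 82.0 and 45.2 CPM in Girk3-null libraries, so its high mean rested on null replicates 1 and 2 (0.91, adjusted p = 0.302, and 0.45 without Girk3-null replicate 1). That library also had the highest Gdf10.

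Antagonists and other extracellular modulators had a median of 0.33, with 14 of 16 tested members positive, and 7 positive and 1 negative at an unadjusted p below 0.05 (14.5% of all genes). Without Girk3-null replicate 1, the median was 0.31 with 11 of 17 tested members above 0, and 7 were at that level, beside 9.70% of all genes. Chrdl1 and Chrdl2, which encode chordin-like proteins, were among the members with the smallest p-values, and neither passed in edgeR. Chrdl2 measured 3.90, 2.48 and 6.44 CPM in wild type and 21.4, 14.5 and 8.89 CPM in Girk3-null libraries (log2 fold change 1.81, adjusted p = 0.291 in edgeR). Its groups did not overlap, and the value was 1.47 without Girk3-null replicate 1. Chrdl1 measured 2.22, 2.02 and 1.93 CPM in wild type and 5.23, 12.9 and 9.41 CPM in Girk3-null libraries, a log2 fold change of 2.15, and of 2.44 without that library (adjusted p = 0.0619 in edgeR). Noggin, a direct antagonist of BMP2 and BMP4, had a log2 fold change of 0.32 for its gene Nog at 3.38 ± 0.569 RPKM.

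Among proteases that cleave ligand precursors or free ligands from their antagonists, 4 of 6 tested genes were positive with a median of 0.34, and 3 had an unadjusted p below 0.05 (14.5% of all genes), all positive. Without Girk3-null replicate 1 the median was 0.26 with 4 of 6 positive. Only 1 of the 6 was then at that level, beside 9.70% of all genes. Pcsk6, a proprotein convertase, measured 78.5, 72.9 and 98.9 CPM in wild type and 236, 162 and 119 CPM in Girk3-null libraries (log2 fold change 1.05, adjusted p = 0.291 in edgeR). Its groups did not overlap, and the value was 0.75 without Girk3-null replicate 1. Pcsk5, of the same family, had 37.1 CPM in Girk3-null replicate 1 and 9.71 to 15.1 CPM elsewhere, so that its log2 fold change of 0.98 fell to 0.35 without that library. Furin, the general convertase of this family of ligands, had a log2 fold change of 0.44 (adjusted p = 0.306 in edgeR).

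Other BMP, GDF and activin ligand genes were mostly at low level: 6 of 15 were not tested, and Bmp10 had 0 counts in every library. Of the 9 tested, 5 were positive and 4 negative with a median of 0.18 that turned to -0.08 without Girk3-null replicate 1, and 2 each way had an unadjusted p below 0.05 (14.5% of all genes). Without that library 4 of 9 were at that level, beside 9.70% of all genes. Inhba, which encodes the activin A subunit, was the most abundant at 33.4 RPKM over 6 libraries. It measured 75.7, 85.7 and 82.2 CPM in wild type and 53.7, 37.3 and 58.3 CPM in Girk3-null libraries (log2 fold change -0.71, adjusted p = 0.291 in edgeR). Inhbb, the activin B subunit gene, had a log2 fold change of -0.62 and Gdf1 one of 1.50 at under 1 CPM, and neither passed. The groups did not overlap for these 3 genes, as for 20.0% of all genes. Run without the filter on low counts, edgeR called 4 of 70 genes of the lists as higher, Chrdl1, Chrdl2 and Pcsk6 among them (0.194% of all genes), and DESeq2 called 8 of the 59 to which it gave an adjusted p (2.23% of all genes), with Chrdl1, Chrdl2, Pcsk6, Dlx5 and Gdf15 among 6 higher ones and Inhba and Inhbb as the 2 lower ones.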

How the data were processed

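Polyadenylated RNA of 6 libraries was sequenced. Raw counts per gene and RPKM values were deposited by the authors in one table, with STAR 2.5.2b, bcl2fastq 2.19.0 and mm10 named in the submitters' processing notes. The labels do not state the counter, annotation or strand setting. The deposited RPKM equal the count scaled to the library total and per kilobase of the table's length plus 1 base. Genotypes were compared with edgeR 4.0.16 (R 4.3.3), quasi-likelihood test, TMM factors, a minimum count of 10 and total of 15, and Benjamini-Hochberg adjustment over 17554 genes at 0.05. The script was tested on simulated data. DESeq2 1.42.0, limma 3.58.1, other scalings and filters, RPKM with pseudocounts of 0.1 and 1, and each library left out were alternatives. Replicates were numbered in accession order. The ligands, lists and tests were chosen with earlier results of these data known. Named genes are all 9 ligands, the 3 smallest p-values of each pathway list (1 of these genes is not reported here), the most similar gene of each ligand, and overlapping genes. Others (Bmpr1a, Bmpr1b, Id1, Id2, Id3, Nog, Gdf15, Bmp10, Spp1, Dmp1, Col1a1, Dcn, Lum, Mkx, Col3a1, Col10a1, Mmp13, Col2a1, Col9a2, Col9a3, Col11a2, Matn1, Matn3, Comp) were named after their values were seen.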

Additional observations from a re-analysis of the deposited data

How the results depend on the processing

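None of the 9 ligands was called under any of 15 alternatives, and the directions of Bmp3, Bmp4, Bmp5, Bmp6 and Gdf10 were the same in all 15. Bmp3 ranged from 0.27 to 0.54 (adjusted p 0.152 to 0.814), Bmp4 from -0.58 to -0.33 (0.131 to 0.814), Bmp5 from -0.46 to -0.20 (0.234 to 0.814), Bmp6 from -0.60 to -0.06 (0.257 to 0.94) and Gdf10 from 0.33 to 1.09 (0.161 to 0.814). Signs turned for Bmp2 (0.0211 without Girk3-null replicate 1, 0.00675 without Girk3-null replicate 2), Bmp7 (0.409 and 0.0419 on leaving out wild type replicate 3 and null replicate 2), Gdf5 (-0.0322 without wild type replicate 2) and Gdf6 (-0.0472 with library totals, -0.00789 with log2(RPKM + 1), -0.214 on leaving out wild type replicate 3, -0.168 on leaving out null replicate 2). The lowest and highest values over left-out libraries were -0.324 and 0.0211 for Bmp2, -0.37 and 0.409 for Bmp7, and -0.214 and 0.289 for Gdf6. Over all genes the calls went from 1 to 0 with library totals, the title-number covariate, limma-voom and both RPKM fits, to 53 with no filter and 358 with DESeq2. Leaving out 1 library gave 0 to 74, the latter without wild type replicate 3. Library totals moved the median of all genes from 0.01 to -0.09 and the genes at an unadjusted p below 0.05 from 1315 higher and 1233 lower to 736 and 2332. Of the pathway genes, 4 were called with no filter and 8 with DESeq2. The receptor median was -0.215 with library totals, -0.011 with the covariate, -0.178 with log2(RPKM + 0.1), and -0.135 to -0.049 over left-out libraries. The SMAD median was -0.167, -0.168 and -0.154 with library totals, log2(RPKM + 0.1) and log2(RPKM + 1). The antagonist median was 0.23 to 0.489 over left-out libraries. That of other ligands was 0.0189 with log2(RPKM + 1) and -0.0759 to 0.298 over left-out libraries, -0.0214 without wild type replicate 2 and -0.0759 without Girk3-null replicate 1. With exon unions as length, levels were 29.9 RPKM for Bmp6 and 1.97 for Bmp3. Causes were not tested, except that the last alternative changes only the length. No paired analysis was possible because the labels give the groups no shared replicate numbers, and the leading digit of the title numbers, used as a covariate, is not stated to pair samples. Gdf6 had the fewest counts, 42 to 123 per library, and its values have the widest relative counting error of the 9.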
